A study of Mus musculus with 2 samples.

Results

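The genes described here encode the NF-kappaB transcription factor subunits, their inhibitors and a feedback enzyme, and were measured in MC3T3-E1, an osteoblastic cell line that was established from the calvaria of newborn mice. They are Rela, Relb, Nfkb1, Nfkb2, Nfkbia, Nfkbib, Nfkbie, Bcl3, Nfkbiz and Tnfaip3, taken by gene symbol from a table of 55487 rows, in which each of the 10 has 1 row. All 10 are among the 16408 rows with a total of 20 or more counts over both libraries that were compared. The study compared RNA of untreated cells with RNA of cells exposed to 10 nM parathyroid hormone (PTH), a peptide that raises cyclic AMP in osteoblasts through its receptor, and both samples are labelled 1 h. Both groups were grown in medium with 10% serum and plated at 25000 cells per cm2, and treatment began 24 h after plating. Each group had 1 library, with 66302211 counts for untreated cells and 70036872 for PTH, so nothing below can be set against the spread between replicates, and no p-value is given. Ratios are PTH over untreated after scaling for library size, and the range in brackets is a 95% exact interval for counting error alone, in which every read is taken to be an independent draw. The tool behind the counts is unknown, and if it estimated them from transcript coverage, these intervals and the listed zeros are less exact than they look. In RNA from a whole culture, a change in the number of cells that express a gene and a change in RNA per cell cannot be told apart.

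NF-kappaB is a family of dimeric transcription factors built from proteins that share a Rel homology domain. Rela, Relb and Rel encode subunits with a transactivation domain, and Nfkb1 and Nfkb2 encode precursors that are processed to the smaller DNA-binding subunits. In resting cells the IkappaB proteins, encoded by Nfkbia, Nfkbib and Nfkbie, hold the dimers in the cytoplasm. Signals from cytokine and Toll-like receptors activate the IKK kinase complex, which marks the IkappaB proteins for degradation and frees the dimers to enter the nucleus. Several of the genes switched on there encode the pathway's own brakes, among them Nfkbia and Tnfaip3, a ubiquitin-editing enzyme that dampens signalling upstream of IKK. Bcl3 and Nfkbiz encode nuclear members of the IkappaB family that bind NF-kappaB on DNA and modulate transcription.

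Promoter sequences are shown for 5 of these genes because this feedback is read through kappaB sites, the DNA motif that NF-kappaB dimers bind. RefSeq start-site windows (GRCm38.p6) were found for 7 of the 10 genes, in 10 windows, and not for Relb, Nfkb1 and Nfkbiz. Each window was read from 250 bases before to 30 after the annotated start, on the gene's own strand. Capitals mark matches to the kappaB consensus on either strand.
Tnfaip3, chr10:19015381-19015660, minus strand: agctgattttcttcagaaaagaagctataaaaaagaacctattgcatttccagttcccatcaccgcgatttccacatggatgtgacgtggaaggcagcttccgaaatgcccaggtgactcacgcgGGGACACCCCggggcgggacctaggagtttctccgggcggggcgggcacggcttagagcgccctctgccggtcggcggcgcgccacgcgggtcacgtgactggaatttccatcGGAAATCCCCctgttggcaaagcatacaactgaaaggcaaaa
Nfkbia, chr12:55492618-55492897, minus strand: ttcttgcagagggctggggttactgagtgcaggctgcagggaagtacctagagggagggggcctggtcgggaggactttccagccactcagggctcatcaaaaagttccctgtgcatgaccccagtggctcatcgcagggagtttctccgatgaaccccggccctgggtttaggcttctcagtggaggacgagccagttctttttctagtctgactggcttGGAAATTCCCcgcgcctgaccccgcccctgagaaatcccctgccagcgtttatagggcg
Nfkbie, chr17:45555450-45555729, plus strand: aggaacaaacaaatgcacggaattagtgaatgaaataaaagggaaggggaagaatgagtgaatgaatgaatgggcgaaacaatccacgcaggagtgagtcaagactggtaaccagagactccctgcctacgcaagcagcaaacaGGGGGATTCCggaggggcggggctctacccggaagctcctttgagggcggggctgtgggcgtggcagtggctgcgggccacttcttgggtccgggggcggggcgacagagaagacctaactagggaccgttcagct
Bcl3, chr7:19822726-19823005, minus strand: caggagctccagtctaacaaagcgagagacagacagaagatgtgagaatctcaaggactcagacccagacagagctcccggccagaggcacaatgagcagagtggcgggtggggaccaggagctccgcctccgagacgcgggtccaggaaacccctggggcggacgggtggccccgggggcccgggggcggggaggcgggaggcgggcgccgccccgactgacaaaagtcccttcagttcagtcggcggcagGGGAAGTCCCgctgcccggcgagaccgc
Nfkb2, first of 3 starts, chr19:46304487-46304766, plus strand: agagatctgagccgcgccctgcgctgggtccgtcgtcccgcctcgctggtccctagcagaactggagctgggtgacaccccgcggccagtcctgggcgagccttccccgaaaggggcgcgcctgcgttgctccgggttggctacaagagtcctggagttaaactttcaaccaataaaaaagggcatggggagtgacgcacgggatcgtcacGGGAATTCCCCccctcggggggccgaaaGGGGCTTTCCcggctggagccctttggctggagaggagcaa

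Matches to the kappaB consensus were present in 7 of the 10 windows, from 5 of the 7 genes, against 7.94% of 32817 windows of the same length over all RefSeq genes. All windows of Nfkb2 are among these 7, and the 7.94% is a share of windows, not of genes. Tnfaip3 held 2 matches in this window, both before the start, and none in the window of its other annotated start. Nfkbia held 1 match at 29 bases before the start, Nfkbie 1 at 106 bases before it, and Bcl3 1 that begins 3 bases into the transcript. Nfkb2 held 3 matches in the window shown, of which 2 overlap on opposite strands. Its other windows overlap and share 1 match, a site that is thus counted in both. In 1 of them a further match lies 236 bases before the start. The Rela and Nfkbib windows held none. The cyclic AMP response element TGACGTCA was in none of the 10 windows and in 1.74% of all windows. Its core TGACG, searched on both strands, was in 1 window of Tnfaip3, 2 of Nfkb2 and 1 of Nfkbib, and in 19.9% of all windows. The AP-1 motif TGANTCA was in the Tnfaip3 window shown, in that of Nfkbie and in 1 of Nfkb2, against 7.47% of all windows. Genes with a kappaB match stood on both sides of a ratio of 1, with Tnfaip3 below it and Nfkbie, Bcl3, Nfkb2 and Nfkbia above it. These matches describe letters in the windows, not binding.

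After 1 h of PTH the inhibitor genes moved apart, while ratios of the 4 subunit genes lay between 0.890 and 1.24. Bcl3 had 5.34-fold more reads (4.35 to 6.61), Nfkbie 3.17-fold more (2.92 to 3.44) and Nfkbiz 1.84-fold more (1.73 to 1.97). Tnfaip3 had 5.44-fold fewer reads (4.99 to 5.94). A gene was called where its whole interval lay beyond 1.5-fold in either direction. By this rule 3 of the 10 genes had more reads, where 5.39% of all compared rows did, and 1 had fewer, where 3.54% did. Calls in either direction took 8.93% of all rows. The 10 genes had a median log2 ratio of 0.30, and all compared rows one of 0.00. The genes were chosen with results of these libraries known, so these counts describe the genes and are not evidence about the pathway. Variation between cultures is unknown. If it is taken as a coefficient of variation of 0.2 in each library and the interval widened to match, Bcl3 (2.96 to 9.55), Nfkbie (1.82 to 5.52) and Tnfaip3 (a ratio of 0.106 to 0.321) stayed beyond 1.5-fold and Nfkbiz (1.06 to 3.21) did not. With that wider interval 2.89% of all rows were called for more reads and 1.63% for fewer.

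**Figure D1:**
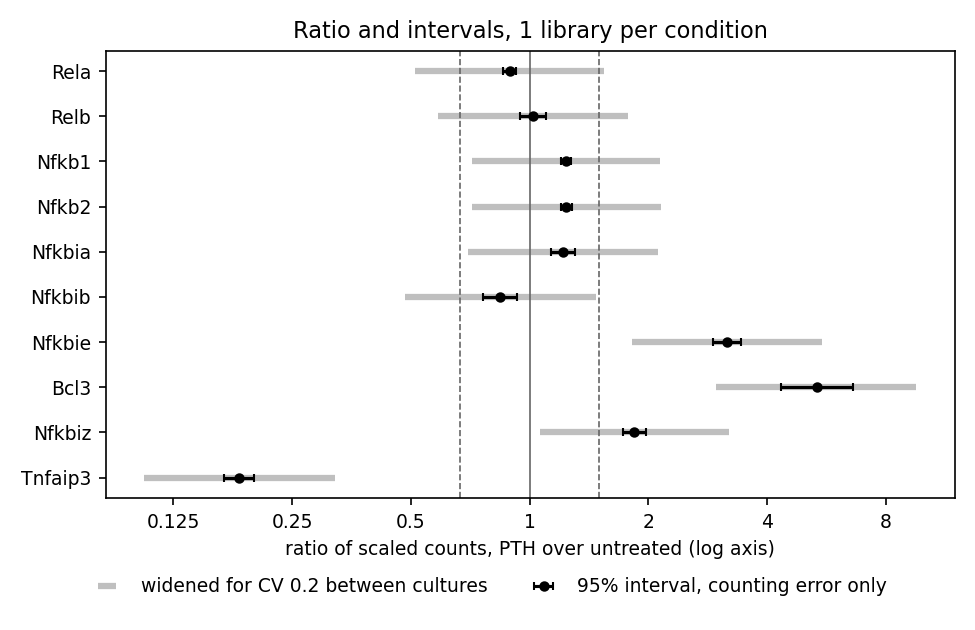
Ratio of scaled counts, PTH over untreated, for each of the 10 genes on a log axis, with 1 library per condition. Black bars are 95% counting intervals, grey bars are widened for an assumed coefficient of variation of 0.2 between cultures, and dashed lines mark 1.5-fold; Bcl3 and Nfkbie lie wholly to the right of the lines and Tnfaip3 to the left under both intervals.

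Among the subunit genes, Rela encodes the main transactivating subunit of the classical pathway. It had 6071 counts untreated and 5563 with PTH, or 90.4 and 80.4 CPM (counts per 1000000 of the scaled library size), a ratio of 0.890 (0.858 to 0.923). Relb, the transactivating partner of the alternative pathway, had 1359 and 1427 counts, a ratio of 1.02 (0.946 to 1.10). The interval of Relb spans 1, and with total-count scaling its ratio was 0.994. Nfkb1 and Nfkb2 encode the precursors of the DNA-binding subunits and moved by almost the same amount. Nfkb1 had 7962 and 10159 counts, 119 and 147 CPM, a ratio of 1.24 (1.20 to 1.28). Nfkb2 had 7620 and 9730 counts, 113 and 141 CPM, also a ratio of 1.24 (1.20 to 1.28). The counting intervals of Rela, Nfkb1 and Nfkb2 leave out 1, and all 3 lie inside the spread of well-counted rows. The middle 95% of the 9549 rows with at least 1000 counts spanned log2 ratios from -0.56 to 0.85, and these 3 genes stood at -0.17, 0.31 and 0.31. Some exons of Nfkb2 (18.1% of their length) overlap a gene on the opposite strand, and the use of strand in counting is unknown.

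The remaining gene of the Rel family, Rel, which was not among the 10, had 3993 and 2759 counts. Its ratio was 0.671 (0.639 to 0.705), an interval that reaches inside the 1.5-fold limit. Summed over the 5 subunit genes, the libraries had 27005 and 29638 counts, a ratio of 1.07 (1.05 to 1.08). Within that sum the share of reads from Nfkb1 was 29.5% (exact binomial interval 28.9 to 30.03) in untreated cells and 34.3% (33.7 to 34.8) with PTH. The share from Nfkb2 was 28.2% (27.7 to 28.8) and 32.8% (32.3 to 33.4). Rela went from 22.5% (22.0 to 23.0) to 18.8% (18.3 to 19.2), and Rel from 14.8% (14.4 to 15.2) to 9.31% (8.98 to 9.65). Relb held 5.03% and 4.81%, with intervals that overlap. Reads thus shifted toward the 2 precursor genes and away from Rela and Rel within a nearly constant sum. These shares do not depend on how the libraries were scaled, but longer transcripts give more reads, so they compare libraries and not genes.

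The genes for the classical cytoplasmic inhibitors did not move together. Nfkbia, the prototype that is made again quickly after NF-kappaB is activated, had 1467 and 1837 counts, or 21.8 and 26.6 CPM. Its ratio of 1.22 (1.13 to 1.30) is close to those of Nfkb1 and Nfkb2. Nfkbib had 853 and 740 counts, 12.7 and 10.7 CPM, a ratio of 0.842 (0.762 to 0.931). Nfkbie, which encodes a further inhibitor of the same type, had 784 and 2558 counts, 11.7 and 37.0 CPM, and its ratio of 3.17 was the only one of the 3 past 1.5-fold. Nfkbie ranked 509th from the top of the 16408 compared rows by log2 ratio. Against Nfkbia in the same libraries, reads of Nfkbie increased 2.61-fold (2.34 to 2.90), and against Nfkbib 3.76-fold (3.31 to 4.28), ratios in which library scaling cancels. Of the reads of these 3 genes, Nfkbie took 25.3% (23.7 to 26.8) in untreated cells and 49.8% (48.4 to 51.2) with PTH. Nfkbia took 47.3% (45.5 to 49.0) and 35.8% (34.5 to 37.1), and Nfkbib 27.5% (25.9 to 29.1) and 14.4% (13.5 to 15.4). The 3 together had 3104 and 5135 counts, a ratio of 1.61 (1.54 to 1.68). Part of Nfkbib (16.4% of its exonic length) overlaps Ccer2 on the opposite strand, and Ccer2 was listed at 0 in both libraries.

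**Figure D2:**
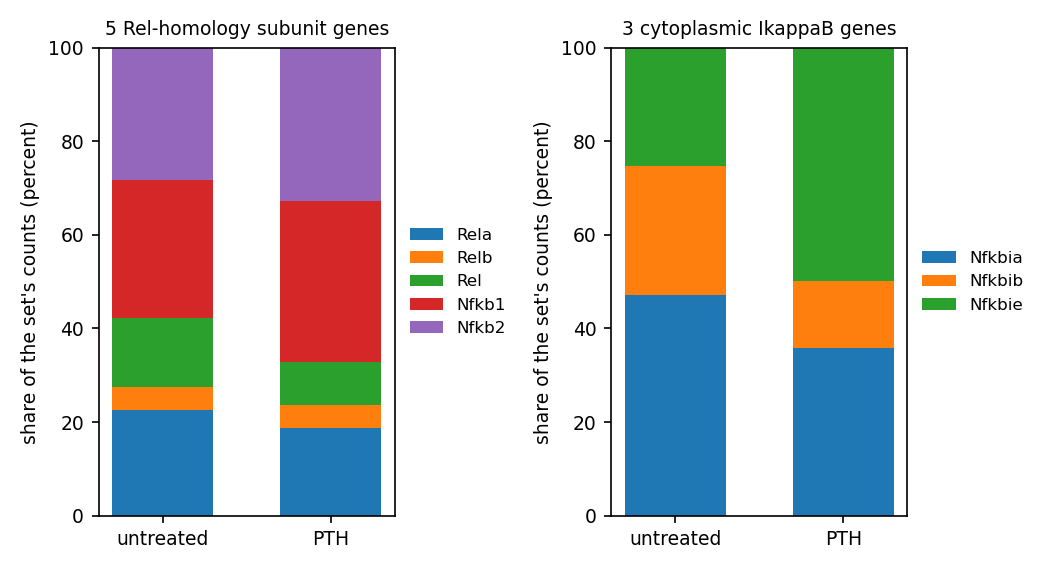
Share of counts in percent taken by each gene within the 5 Rel-homology subunit genes (left) and the 3 cytoplasmic IkappaB genes (right), in the untreated and the PTH library. The subunit shares shift by a few percent, while Nfkbie goes from 25.3% to 49.8% of the IkappaB reads.

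Both nuclear IkappaB genes had more reads after PTH. Bcl3 encodes a nuclear protein that can turn dimers of the DNA-binding subunits into activators. It had 110 counts untreated and 605 with PTH, or 1.64 (1.35 to 1.97) and 8.75 (8.07 to 9.47) CPM, so the counting intervals of the libraries are far apart. It ranked 247th from the top of the compared rows. Antisense to Bcl3, Gm16175 covers 6.51% of its exonic length and was listed at 0 and 12 counts. Nfkbiz, a nuclear cofactor for a subset of NF-kappaB target genes such as Il6, had 1353 and 2570 counts, 20.1 and 37.2 CPM. It ranked 1268th, and the ratio of Nfkbiz to Bcl3 reads changed by 0.345 (0.276 to 0.429), so Bcl3 had the larger relative increase. Nfkbiz gained 17.0 CPM and Bcl3 7.11. The 2 genes together had 1463 and 3175 counts, a ratio of 2.11 (1.98 to 2.24). Bcl3 and Relb both lie on chromosome 7, with 179 kb between them, and Relb stood at a ratio of 1.02.

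Tnfaip3 was the gene among the 10 with fewer reads past the rule. It had 3216 counts untreated and 609 with PTH, or 47.9 (46.3 to 49.6) and 8.81 (8.12 to 9.53) CPM. It ranked 144th from the bottom of the 16408 compared rows. No exon of another gene overlaps it in the annotation used. Reads of Nfkbia relative to Tnfaip3 increased 6.61-fold (5.91 to 7.40). Both are classical NF-kappaB feedback genes, and both carry kappaB matches near an annotated start. The cause of the difference between them was not tested. Against Tnfaip3, reads of Nfkbie increased 17.2-fold (15.3 to 19.4) and those of Bcl3 29.0-fold (23.2 to 36.5). Per kilobase of exonic length, Bcl3 stood at 0.0999 of the Tnfaip3 level in untreated cells and at 2.90 times that level with PTH.

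**Figure D3:**
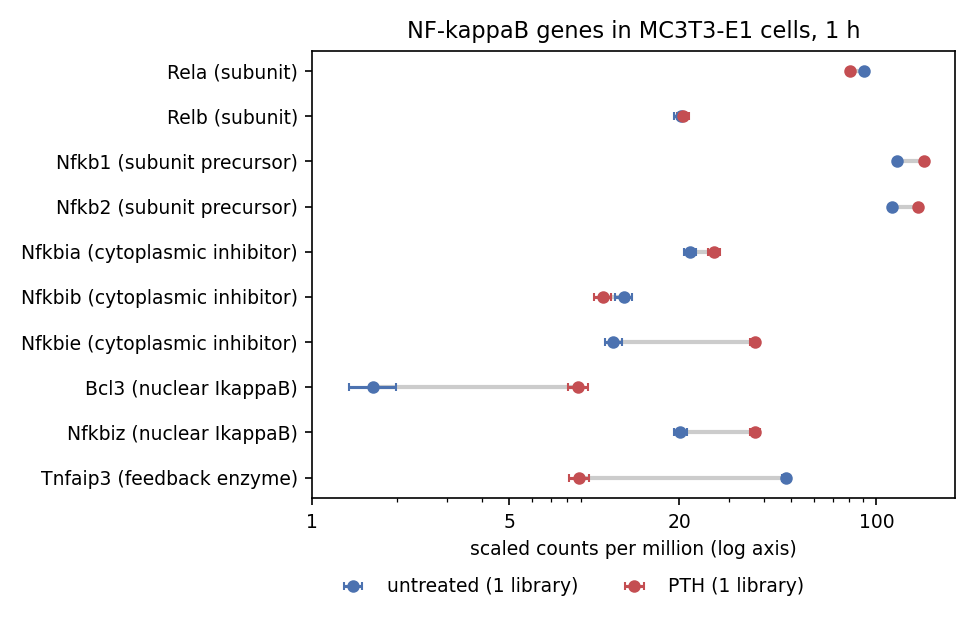
Scaled counts in CPM (log axis) of each gene in the untreated (blue) and PTH (red) library, 1 library each, with 95% exact Poisson intervals that cover counting error only. Bcl3 went from 1.64 to 8.75 and Tnfaip3 from 47.9 to 8.81, so the pair end at nearly the same value; levels are not corrected for gene length.

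Levels were set in order per kilobase of annotated exon, as CPM per kilobase. In untreated cells Rela was highest at 29.4, followed by Nfkb2 at 24.8, Nfkbia at 13.6, Nfkb1 at 9.83 and Tnfaip3 at 6.63. Nfkbib (5.86) and Relb (5.21) came next with overlapping counting intervals, then Nfkbiz (4.02) and Nfkbie (3.83), which also overlap, and Bcl3 was lowest at 0.662. With PTH the order was Nfkb2 at 30.7, Rela at 26.2, Nfkbia at 16.5, and Nfkb1 (12.2) beside Nfkbie (12.1) with overlapping intervals. Nfkbiz followed at 7.41, then Relb (5.31) and Nfkbib (4.93), again overlapping, Bcl3 at 3.53 and Tnfaip3 at 1.22. Tnfaip3 thus went from 5th to 10th and Nfkbie from 9th to 5th. The place of Nfkb1 rests on the length used. Its annotated exons sum to 12061 bases but its longest transcript has 4149, and by the latter its level was 28.6 untreated, next below Rela and Nfkb2, and 35.4 with PTH, next below Nfkb2.

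Among 4 lists of genes that carry or restrain signals to NF-kappaB, 6 of 57 compared genes were called, 3 in each direction. That is 10.5%, near the 8.93% of all rows, so the count does not set these lists apart. Of 13 genes of the IKK complex and its activating kinases, none had more reads and 1 had fewer, with a median log2 ratio of -0.05. The one with fewer was Map3k14, the kinase that starts processing of the Nfkb2 precursor, with 4154 and 2387 counts and a ratio of 0.558 (0.530 to 0.587). The IKK subunit genes Chuk (1.13), Ikbkb (1.05) and Ikbkg (0.969) had ratios near 1, and Tab2, an adaptor of the upstream kinase and the gene of this list with most counts, one of 0.904. Of 12 receptor genes 10 had enough counts, 1 had more reads and none fewer. Il1r1, the signalling receptor for interleukin-1, had 3665 and 9794 counts, a ratio of 2.60 (2.498 to 2.70). Tnfrsf12a, a TNF receptor family gene, was at 0.670 (0.657 to 0.684), and the receptor genes Cd40 and Tnfrsf11a were listed at 0 in both libraries. The 3 IKK subunit genes and these 2 receptor genes fall outside the rule for named genes and were added with their values known.

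Adaptors and ubiquitin ligases had 2 of 18 genes with more reads and 2 with fewer, or 4 in either direction, where 8.93% of all rows were called. Traf1 is among them and met the count minimum only through the PTH library. Traf1, an adaptor of TNF receptors, had 8 and 41 counts, a ratio of 4.98 (2.30 to 12.3), and Malt1, a protease and scaffold that acts upstream of IKK, 375 and 700, a ratio of 1.81 (1.60 to 2.06). Traf5, another receptor adaptor, had 1664 and 806 counts, a ratio of 0.470 (0.432 to 0.512), and Irak2, a kinase-like adaptor of interleukin-1 and Toll-like receptors, 1037 and 557, a ratio of 0.522 (0.470 to 0.579). None of 16 deubiquitinases and other negative regulators was past the rule in either direction, with a median of -0.01. That list holds genes that act beside Tnfaip3, such as Tax1bp1 (ratio 1.01) and Itch (0.940), which help it edit ubiquitin, the deubiquitinase Cyld (1.04) and the partner Tnip1 (1.01). Farther above 1 were N4bp1 at 1.40 (1.34 to 1.47) and the RNase gene Zc3h12a at 1.38 (1.252 to 1.52). Farther below it were Pias1 at 0.804 (0.748 to 0.864), the deubiquitinase gene Otud7b at 0.806 (0.769 to 0.846) and Pdlim2 at 0.833 (0.788 to 0.881). Nlrc5 stood at 0.601 (0.277 to 1.26) on only 21 and 13 counts. Tax1bp1 and Itch have the most counts in the list that the naming rule takes. The other genes named from that list were chosen with their values in view. With the wider interval, Traf1 was the one gene of these 4 lists still past 1.5-fold. Of the remaining NF-kappaB and IkappaB genes, Nkrf, a repressor of NF-kappaB, was at 1.46 (1.36 to 1.57), and Nfkbid, also outside the naming rule, was listed at 0 in both libraries.

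Genes that NF-kappaB is known to activate differed widely. Of 28 listed genes 19 had enough counts, of which 11 had more reads, none fewer and 8 neither, where 5.39% of all rows had more. Cxcl1, Cxcl5 and Traf1 passed the count minimum only through the PTH library, so their calls are no support for the list. With at least 100 counts in total, which leaves these 3 out, 8 of 14 genes had more reads, where 543 of 13079 rows did. Il6 is among these 8 and met this minimum only through the PTH library, so its call is no support for the list either. Il6 had 38 and 1237 counts, a ratio of 31.6 (22.9 to 44.9), and the chemokine gene Ccl2 1408 and 7243, a ratio of 5.00 (4.72 to 5.29). With PTH, Cxcl1 had 67 counts and Cxcl5 had 64, and both were listed at 0 without it. The table holds many such zeros, so no fold is given for these 2 chemokine genes. The remaining called targets had ample counts in both libraries. They were Ccl7 at a ratio of 4.30, Lif at 4.07, Ier3 at 3.09, Ptgs2 at 1.98, Irf1 at 1.70 and Gadd45b at 1.57. Other targets with ample counts were not past the rule. They include Csf1, a macrophage growth factor gene, at 0.870, Bcl2l1, a survival gene, at 0.735 and Vcam1, an adhesion gene, at 1.23. Mmp9, a matrix protease gene, had 60 and 33 counts and was not past it either. Tnf, Il1b, Icam1 and Sele were listed at 0 in both libraries. The genes named here from Ccl7 to Sele fall outside the naming rule and were picked after their values were seen. The list itself was chosen with earlier results known. With the wider interval 8 of the 19 kept more reads, where 2.89% of all rows did. Cxcl1, Cxcl5 and Traf1 are among those 8. Many of these genes also respond to cyclic AMP. In a list of cyclic AMP targets all 10 genes had more reads, with a median log2 ratio of 2.78, where 5.39% of all rows had more. That list was also chosen with earlier results known, so its count only describes these 10 genes. Among them Rgs2, which limits G protein signalling, had 123 and 6334 counts, Nr4a2 and Nr4a3, nuclear receptor genes, were at ratios of 13.6 and 10.3, and Crem, a cyclic AMP-responsive factor, at 12.2. The part of either pathway in the counts of the shared targets was not tested.

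**Figure D4:**
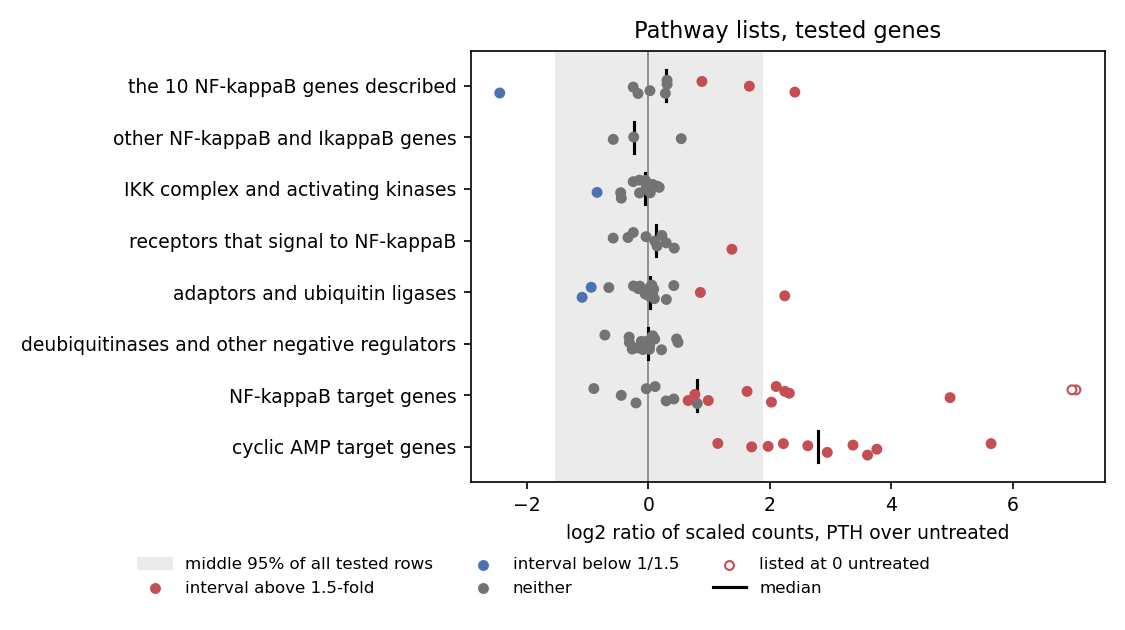
Log2 ratio of scaled counts, PTH over untreated, for the compared genes of each list, with 1 point per gene, black lines at the medians and the middle 95% of all compared rows shaded. Open points are genes listed at 0 untreated, placed with 0.5 count added; the 10 genes described (median 0.30) reach farther to the left than any list, and all cyclic AMP targets (median 2.78) lie above 1.5-fold.

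The rows most like Tnfaip3 and Bcl3 were found by the smallest difference in log2 ratio over the 2 libraries. The search covered 9349 candidate protein-coding rows with at least 500 counts and under 20% of their exons shared with another gene. For Tnfaip3 these were Cdk5r1, an activator of a cyclin-dependent kinase, with 2703 and 520 counts, Rgs3, a regulator of G protein signalling, with 4326 and 776, and Atf3, a stress-responsive transcription factor, with 977 and 207. They had 5.35-fold, 5.74-fold and 4.86-fold fewer reads. For Bcl3 they were Got1, an aminotransferase gene, at 5.40-fold more reads, Thbd, which encodes thrombomodulin, at 5.19-fold and the angiogenic factor gene Vegfa at 5.17-fold. With 1 ratio per gene, likeness here means only a similar size of change.

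The labels give the cells as osteoblasts and name no batch. All 9 osteoblast markers had enough counts, at very different levels. Col1a1, the main bone collagen gene, held 1935295 and 2093308, and Bglap, the lowest of the 9, held 57 and 87. Sp7, an osteoblast transcription factor, was the one called, at a ratio of 0.418. Immune cells express many of the genes above, so their markers are given here. The lymphocyte markers summed to 0.223 CPM untreated and 0.145 with PTH, with Ptprc, the pan-leukocyte gene, and 4 of the other 5 at 0. Of 8 macrophage and osteoclast markers, Adgre1 and Itgam were at 0 in both libraries, and 68.7% of the exonic length of Itgam is shared with another gene on its strand. The list summed to 90.2 and 104 CPM. Most of that was Ctsk, a protease gene that bone cells other than osteoclasts can express, with 5656 and 6452 counts. Cd14, a lipopolysaccharide co-receptor gene, was the marker called, with 14 and 173 counts, and it too met the count minimum only through the PTH library. Lyz2, a lysozyme gene of myeloid cells, had 201 and 338 counts, a ratio of 1.63 (1.37 to 1.95), Csf1r 122 and 155, Cd68 67 and 57, and Acp5 0 and 8. The part of such cells in the results above was not tested. Endothelial markers summed to 0.134 and 0.188 CPM, adipocyte markers to 0.685 and 0.795, and muscle markers to 0.923 and 0.535. The 4 chondrocyte markers summed to 460 and 714 CPM, far more than these 3 lists. Acan and Col10a1 were at 0. Col2a1 had 27597 and 38400 counts, a ratio of 1.35. Sox9 had 3264 and 10982, a ratio of 3.27 (3.14 to 3.40), and was the chondrocyte marker called.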

How the data were processed

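The table the authors deposited holds whole-number counts for each gene, without normalisation, in a column for each library. The submitters' processing notes name HISAT2 and the mm10 build, per the labels. Not given in the sources used here are the aligner's version, the counting tool, the annotation and the use of strand, so the counts may be counted reads or estimates from transcript coverage. The labels name total RNA and no selection step. Scaling used TMM effective library sizes from edgeR 4.0.16 (R 4.3.3) on the 16408 rows with 20 or more counts in total. The quasi-likelihood test of edgeR could not be fitted to 1 library per group. Each ratio carries a 95% exact conditional (Clopper-Pearson) interval (scipy 1.17.1, Python 3.11.15), and a row was called when the interval lay wholly beyond 1.5-fold. Intervals cover counting error only, and they may understate even that, since PCR copies are not separate molecules. Log2 ratios use 0.5 added to every count. The widened interval is a normal approximation on the log scale. Ratios between 2 genes are conditional odds ratios with exact intervals. Exonic length, overlap (bedtools 2.31.1) and gene type came from GENCODE M21 (GRCm38), which lists 55227 of the 55487 gene identifiers, and promoter windows from RefSeq. The interval was checked on simulated Poisson counts, the model it assumes. That check cannot cover PCR copies, estimated counts or variation between cultures.

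The genes, the 7 pathway lists and the 7 marker lists were chosen with earlier results of these libraries known. The rule for named genes takes all 10 genes and up to 4 called members of each list. Where fewer than 2 were called it takes those with most counts up to 2. Genes named outside it are marked in the text. It adds the 3 rows nearest in log2 ratio to Tnfaip3 and to Bcl3. Alternatives were 3 other scalings (total counts, DESeq2 1.42.0 size factors, upper-quartile factors of edgeR), 3 count filters, 2 fold limits, 2 widened intervals and another gene length.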

Additional observations from a re-analysis of the deposited data

How the results depend on the processing

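Across the scalings and count filters tried, Bcl3 stayed between 5.21 and 5.35, Nfkbie between 3.09 and 3.18, Nfkbiz between 1.80 and 1.85 and Tnfaip3 between 0.179 and 0.184, and each kept its call under those settings. Nfkbiz alone of the 4 lost its call, at an unchanged 1.84, with a fold limit of 2 and with intervals widened for a coefficient of variation of 0.1 or 0.2. Relb changed direction with total-count scaling, at 0.994. Over all rows, the 884 with more and 581 with fewer reads became 1386 and 983 when any row with 1 or more counts entered, 543 and 307 with a minimum of 100, 1495 and 1213 with the lower fold limit tried, 517 and 262 with a limit of 2, and 475 and 268 with the interval widened for 0.2, each by construction of the rule. With the longest transcript as gene length, 6 of the 10 genes kept their place in the untreated order of levels. No replicate could be left out and no paired analysis was possible because each group has 1 library and the labels give no replicate numbers. Depth limits Bcl3 most, with 110 counts untreated.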

Other observations

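The 3' untranslated regions of these genes differ in the pentamer ATTTA, the core of the AU-rich elements that mark many short-lived mRNAs of feedback genes and cytokines. In the GENCODE transcript with the longest coding sequence, Tnfaip3 has 5 such pentamers in 1821 bases, Nfkb1 4 in 700, Nfkbiz 4 in 1355, Nfkbia 2 in 512 and Nfkb2 1 in 133. Bcl3 (410 bases), Nfkbie (1010), Nfkbib (763), Rela (714) and Relb (336) have none. Over 20067 genes the median was 1 pentamer in a median length of 841 bases, and 63.2% had at least 1. Per kilobase the order differs, with Nfkb2 at 7.52, Nfkb1 at 5.71, Nfkbia at 3.91, Nfkbiz at 2.95 and Tnfaip3 at 2.75. The median per kilobase over all genes was 1.195. Of the genes called above, Bcl3 and Nfkbie have no ATTTA, while Nfkbiz and Tnfaip3, which went in opposite directions, both have several. This is a description of the annotated sequence, and mRNA decay was not measured.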
